A study of Homo sapiens with 12 samples.

Results

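The genes described here are 109 neighbours on the long arm of human chromosome 1, from S100A6 through ETV3 by genomic start. They were chosen, with IL6R, FDPS and PMVK left out, as the strongest block of adjacent genes whose RNA signals shifted together in carfilzomib-resistant KMS-34 cells. They are the genes of this stretch for which at least 1 probe set names that gene alone, and make up 109 of the 19775 genes measured this way. Among them are 103 protein-coding genes, 5 long noncoding RNAs and 1 transcribed pseudogene, read by 197 probe sets. The comparison of KMS-34/Cfz with KMS-34 chose the members, so its values are given as a description and carry no test.

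The parental lines, KMS-11 and KMS-34, were established from human multiple myeloma, a cancer of antibody-secreting plasma cells. Their derivatives, named KMS-11/Cfz and KMS-34/Cfz, were selected by growth in stepwise higher concentrations of carfilzomib, an inhibitor of the proteasome, up to 12 nM. Drug was withdrawn from the derivatives 1 week before RNA collection, and the parental lines had met no selection. Each of the 4 groups has 3 Affymetrix arrays, 12 in all, and nothing states whether these came from separate cultures, so p-values measure only the spread between arrays. Each derivative is 1 selected culture of its line.

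The deposited log2 values are centred per probe set, so they give differences between arrays and no expression level. For that reason the labelled cell type could not be checked by marker levels, and no member could be called silent or abundant. Of 8 plasma cell markers, 3 were lower in KMS-34/Cfz and 2 in KMS-11/Cfz (limma, adjusted p under 0.05), and none was higher. Over all genes, 4.69% and 1.94% were lower in these derivatives. The log2 differences of the 8 markers ran from -1 to 0.34 and from -0.97 to 0.44, with medians of -0.09 in both. The part of these markers in the results below was not tested. No T or NK cell or stromal marker differed in either derivative, while 1 of 4 monocyte markers and 1 of 2 erythroid markers tested were lower in KMS-34/Cfz. Arrays of a group correlated with r of 0.904 to 0.937 in KMS-11, 0.939 to 0.949 in KMS-11/Cfz and 0.859 to 0.871 in KMS-34. KMS-34/Cfz had the widest range, 0.759 to 0.925, because replicate 1 stood apart from replicates 2 and 3. Some of the results below, but not every count, are also given without it. In RNA from whole cultures, fewer cells of a type and less RNA per cell cannot be told apart, and DNA copy number was not measured in these samples.

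Extra copies of the proximal long arm of chromosome 1 are among the common lesions of myeloma and are known as a mark of poor outcome. Genes of this stretch discussed as its drivers include CKS1B, a cofactor of the ubiquitin ligase that degrades the cell cycle inhibitor p27, the RNA-editing enzyme ADAR and the RNA-binding protein ILF2. The apoptosis inhibitor MCL1 and the proteasome ubiquitin receptor PSMD4 lie on the centromeric side of the block. The block opens with a cluster of S100 genes, which encode small calcium-binding proteins, and goes on through a dense run of genes that most cells use, for RNA processing, protein secretion, lysosomes and mitochondria.

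The sequence upstream of a gene's start is where general transcription factors gather, and it is shown for 4 members whose KMS-34/Cfz signals lay furthest below KMS-34 among the 40 whose window lies outside every annotated gene body. Each window holds the 250 bases before the start, read 5′ to 3′ on the gene's strand from RefSeq (GRCh38.p14). Capitals mark GGGCGG, the GC box bound by factors of the SP and KLF families, and CCAAT, the box bound by NF-Y, on either strand. The windows are chr1:155135125-155135374 on the plus strand for SLC50A1, which encodes a sugar transporter, and chr1:155262361-155262610 on the minus strand for SCAMP3, a membrane protein of the endosome and Golgi. The others are chr1:156295680-156295929 on the minus strand for GLMP, a glycoprotein of the lysosomal membrane, and chr1:156193854-156194103 on the plus strand for SLC25A44, a mitochondrial carrier of branched-chain amino acids.
SLC50A1: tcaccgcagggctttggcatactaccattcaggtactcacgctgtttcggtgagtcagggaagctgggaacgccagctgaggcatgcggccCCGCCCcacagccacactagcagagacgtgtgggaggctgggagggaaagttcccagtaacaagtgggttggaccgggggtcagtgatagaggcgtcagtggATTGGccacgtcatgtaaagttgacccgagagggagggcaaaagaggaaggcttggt
SCAMP3: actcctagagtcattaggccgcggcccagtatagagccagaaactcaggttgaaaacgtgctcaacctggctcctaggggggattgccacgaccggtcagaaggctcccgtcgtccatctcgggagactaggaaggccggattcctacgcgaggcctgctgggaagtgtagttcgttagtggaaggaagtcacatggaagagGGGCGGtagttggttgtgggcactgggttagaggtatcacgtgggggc
GLMP: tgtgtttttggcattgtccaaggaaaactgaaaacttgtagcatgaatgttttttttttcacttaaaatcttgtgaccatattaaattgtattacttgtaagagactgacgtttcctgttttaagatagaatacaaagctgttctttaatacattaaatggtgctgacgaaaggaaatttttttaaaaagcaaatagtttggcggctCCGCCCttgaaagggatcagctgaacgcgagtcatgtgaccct
SLC25A44: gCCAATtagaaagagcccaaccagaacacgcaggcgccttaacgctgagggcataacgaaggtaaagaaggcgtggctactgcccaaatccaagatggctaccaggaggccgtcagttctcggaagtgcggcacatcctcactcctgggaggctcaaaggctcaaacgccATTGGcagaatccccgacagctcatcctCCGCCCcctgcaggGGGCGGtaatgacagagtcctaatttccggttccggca

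Each of these windows holds at least 1 GC box, and SLC50A1 and SLC25A44 also hold CCAAT. Among the 101 members with a RefSeq window, GGGCGG stood in 61.4%, against 42.3% of all 27305 windows. These windows include genes not measured on the arrays, so the shares compare unlike sets of genes. CCAAT was found in 35.6% of member windows and 33% of all. The TATA box letters TATAAA stood in 4.95% and 11.1%, the ETS core CCGGAAG in 6.93% and 8.82%, and the palindromic motif of NRF1 in 0 member windows and 1.13% of all. Members with GGGCGG had a median log2 difference in KMS-34/Cfz of -0.21 and members without it -0.18, and for CCAAT the medians were -0.24 with and -0.17 without. The windows of members had a median GC content of 60.4%, against 58% over all windows. Members on the plus strand had a median of -0.18 and those on the minus strand -0.21.

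In KMS-34/Cfz the members as a group lay slightly below the parental line, unevenly along the block. Their median log2 difference was -0.20, with quartiles of -0.31 and -0.06, while the median over all genes was -0.01. Of the 109 members, 96 had a value below 0 and 13 above, while 53.6% of all genes were below 0, and 31 members lay within 0.1 of 0. Differences went below -0.2 for 54 members and below -0.4 for 16, and the full range was -0.72 to 0.51. The 3 resistant arrays lay wholly below the 3 parental arrays for 58 members, against 10.5% of all genes, and wholly above for 1, against 10.2%. These counts come from the comparison that chose the members, and nothing is read from them.

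Each resistant array of KMS-34/Cfz showed the shift. The members were chosen on the KMS-34 and KMS-34/Cfz arrays, so the separation of these groups is a description and no test. Relative to the mean of the parental KMS-34 arrays, the median of the members was -0.27, -0.17 and -0.19 in the KMS-34/Cfz arrays and -0.04, 0.02 and 0.02 in the KMS-34 arrays, so the groups did not overlap. Below that mean lay 85, 93 and 95 of the members in the 3 resistant arrays. In KMS-11/Cfz the medians relative to parental KMS-11 were -0.02, 0.02 and 0.02, within the spread of the KMS-11 arrays, which gave -0.01, 0.02 and -0.02. Without KMS-34/Cfz replicate 1, the array that stood apart, the KMS-34 median difference was -0.18 and again 96 members were below 0.

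**Figure D1:**
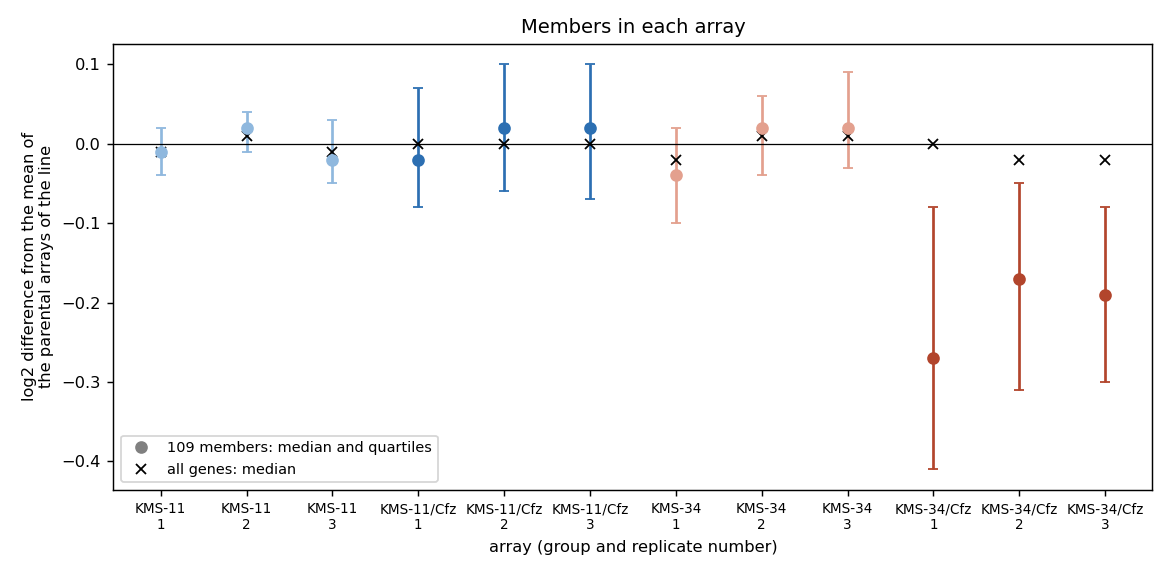
Median (circles) and quartiles (bars) of the 109 members in each of the 12 arrays, as log2 difference from the mean of the parental arrays of the line, with the median of all genes as crosses. The 3 KMS-34/Cfz medians lie between -0.27 and -0.17, and the 9 other arrays lie between -0.04 and 0.02.

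The shift was uneven along the block. The 9 S100 genes at its start had a median of -0.01, the 94 members from CHTOP to PRCC -0.24, and the 6 after PRCC -0.10, with CHTOP and PRCC picked as limits after the values were seen. Of the 94, 86 were below 0, against 53.6% of all genes, and 54 had resistant arrays wholly below the parental ones, against 10.5%. In 5 successive runs of 21 or 22 members, the medians were -0.15, -0.18, -0.24, -0.30 and -0.14. Just inside the ends, S100A6 had a log2 difference of -0.01 and ETV3, a repressor of the ETS family, -0.13. Just outside them, S100A7, an antimicrobial S100 protein of skin, had 0.09, and FCRL5, an Fc receptor-like protein of B cells, had -0.02.

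**Figure D2:**
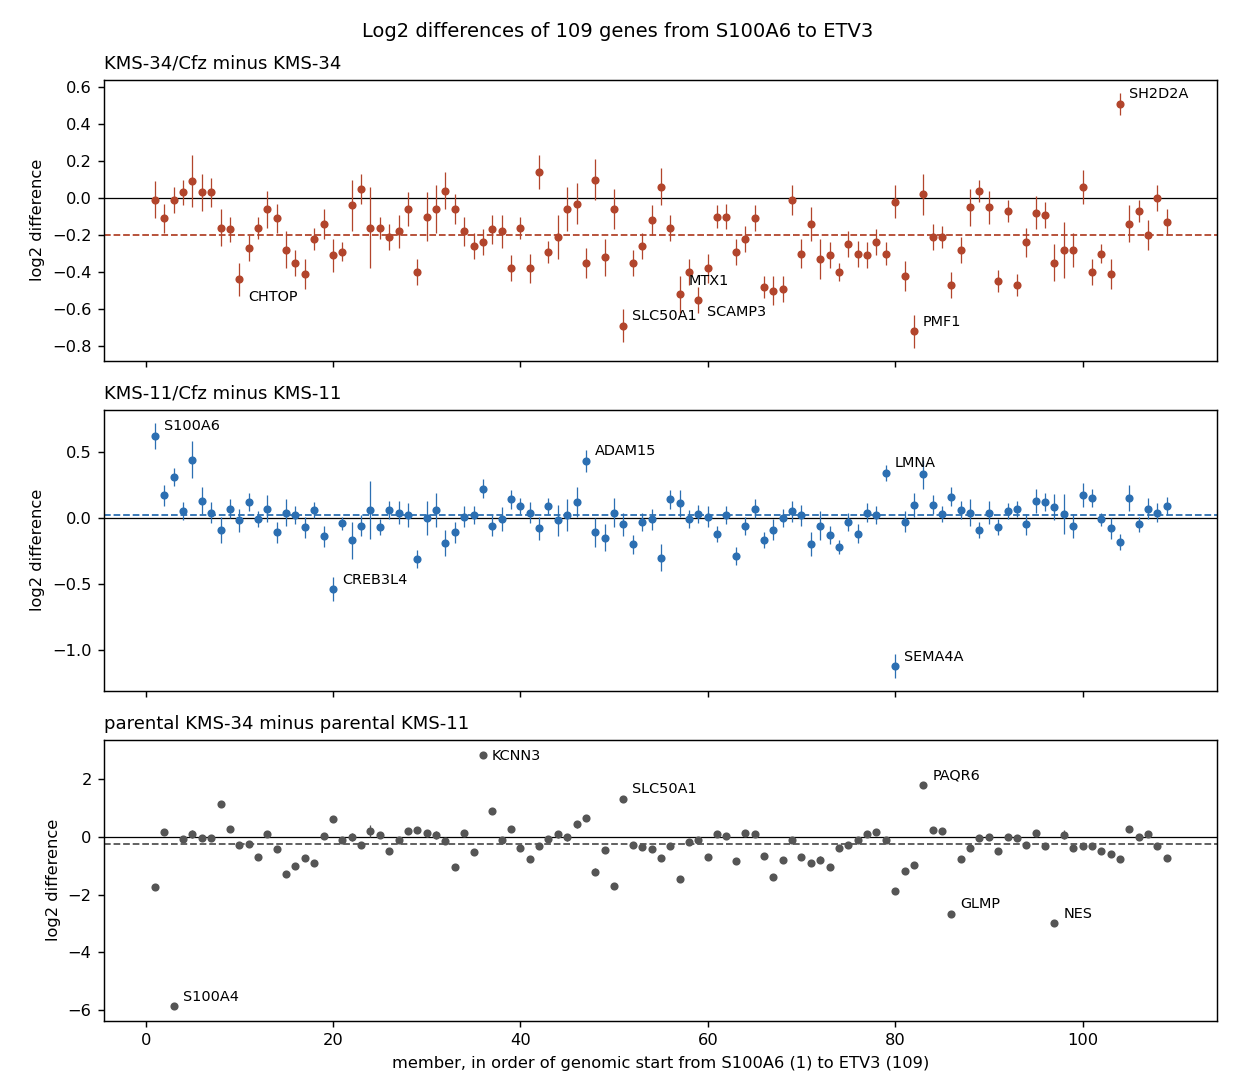
Log2 difference of each of the 109 members in gene order (points, with bars of 1 standard error) in KMS-34/Cfz against KMS-34, KMS-11/Cfz against KMS-11, and parental KMS-34 against parental KMS-11; the dashed line is the median of the members and the vertical scales differ. In KMS-34/Cfz most points from CHTOP on lie near the median of -0.20, in KMS-11/Cfz they scatter about 0.02, and between the parental lines they reach from -5.86 for S100A4 to 2.86 for KCNN3.

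The genes around the block were no members, and their KMS-34/Cfz difference was tested with limma over all genes. The block was chosen as the strongest in this same comparison, so weak shifts just outside its ends were favoured by the choice. The counts for the 25 genes on each side are therefore a description. The 25 genes on the centromeric side of S100A6, from LCE2B of the epidermal late cornified envelope family to S100A7, had a median of -0.01, and 1 was higher and 0 lower. The 25 on the telomeric side of ETV3, from FCRL5 to SLAMF8, had a median of -0.02, with 0 higher and 2 lower. The centred values do not show whether these flanking genes were expressed, so values near 0 do not set an edge of the shift. Further out on the same arm, lower signals were common again. On 1q before S100A6, 29 of 134 genes (21.6%) were lower and 3 higher, and after ETV3, 139 of 635 (21.9%) were lower and 7 higher, whereas 4.69% of all genes were lower and 5.4% higher. Their medians were -0.10 and -0.09, about midway between the members and the median of all genes. On the short arm, 1p, the median was -0.01, with 66 of 1045 genes higher and 32 lower. Of the 769 genes of 1q outside the block, 168 were lower as reported, 151 without KMS-34/Cfz replicate 1, and 60 when the KMS-34 arrays were fitted without those of KMS-11.

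In windows of 20 neighbouring genes along 1q, the lowest medians of the arm in KMS-34/Cfz lay in the block. The block was chosen for its shift in this comparison, so its rank on the arm is a description and no test. From DCST1 to RUSC1-AS1 the median was -0.28, from RUSC1 to PAQR6 -0.30 and from SMG5 to PRCC -0.26. The window from SV2A to GOLPH3L had -0.18, that from HORMAD1 to PSMD4 -0.19, and that from ZNF687-AS1 to S100A11 -0.16. The window from TCHH to SPRR1B, which holds genes of skin cornification, was at -0.01, as was the next, from SPRR2B to S100A16, which holds the first 6 members. The window from SH2D2A to MNDA at the telomeric edge was also at -0.01, and beyond it the lowest was -0.23, from ARV1 to COA6. In KMS-11/Cfz none of the windows of the block was below -0.03.

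**Figure D3:**
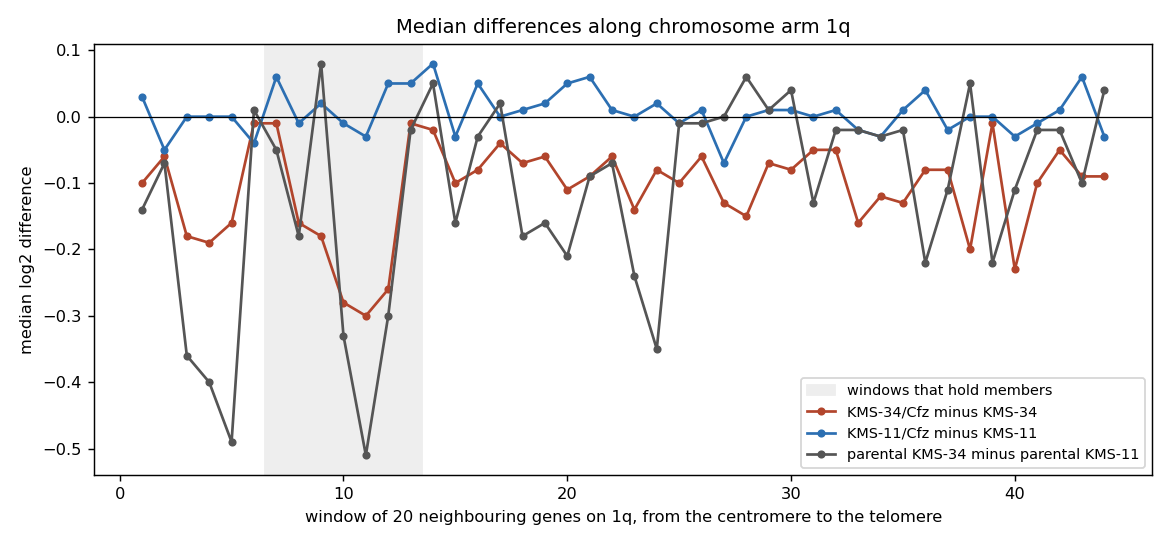
Median log2 difference of windows of 20 neighbouring genes along 1q (horizontal axis, window number from the centromere to the telomere) for the 3 comparisons, with windows that hold members shaded. KMS-34/Cfz, the comparison that chose the block, reaches -0.30 in it and stays at or below -0.01 in every window. Parental KMS-34 against KMS-11 reaches -0.51 in the block and -0.49 outside it, and KMS-11/Cfz stays between -0.07 and 0.08.

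PMF1, a subunit of the MIS12 complex that joins kinetochores to microtubules, had the lowest log2 difference of the members in KMS-34/Cfz. Its resistant arrays lay at -0.90, -0.71 and -0.54 relative to the parental mean and its parental arrays at -0.11, 0.03 and 0.08. The groups did not overlap, and the mean of the resistant arrays corresponds to 60.7% of the parental signal. A probe set shared by PMF1, the neighbouring BGLAP and their readthrough transcript, which was not counted among the members, gave -0.71 as well.

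SLC50A1 followed, with resistant arrays at -0.87, -0.56 and -0.63 and parental arrays at 0.01, 0.07 and -0.08, or 62% of the parental signal. SCAMP3 lay at -0.69, -0.52 and -0.44 in the resistant arrays against -0.06, -0.01 and 0.07 in the parental ones, a mean difference of -0.55. The 3 resistant arrays of both genes were clear of the parental arrays. MTX1, a mitochondrial outer membrane protein that takes part in protein import, had a wider spread, at -0.76, -0.50 and -0.31 against -0.10, -0.01 and 0.11. For this gene, as for many members, replicate 1 was the lowest of the resistant arrays.

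Medians and counts by role come from the comparison that chose the members, in which 88.1% of all members were below 0. They are a description and no test. The group of metabolic and mitochondrial genes had the lowest median of the groups by role, -0.42 over 9 members, all of them below 0. Besides SLC50A1 and MTX1 it holds MSTO1, a factor of mitochondrial fusion and shape, at -0.50, and NAXE, which repairs damaged NADH and NADPH, at -0.47. MSTO1 has a near-identical pseudogene copy, MSTO2P, and a probe set that names both genes gave -0.42, so the 2 copies cannot be told apart here. MTX1 also has a pseudogene copy nearby, and probe sequences were not used here to separate them.

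Genes of transcription and chromatin had a median of -0.30 over 11 members, all below 0. YY1AP1, a coactivator that binds YY1, lay at -0.49, MEF2D, a MADS-box factor of muscle, neurons and lymphocytes, at -0.45, and GATAD2B, a subunit of the NuRD chromatin remodeller, at -0.35. For folding, secretion and lysosomes the median was -0.27 over 11 members, again all below 0, among them SSR2, a subunit of the translocon-associated TRAP complex, at -0.40. GLMP, which was not placed in a group, lay at -0.47, but its 3 probe sets gave 0.07, -0.62 and -0.87 and thus fell on both sides of 0.

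Genes of RNA processing and translation had a median of -0.25 over 14 members, of which 13 were below 0. CHTOP, an adaptor of mRNA export, lay at -0.65, -0.34 and -0.32 in the resistant arrays against -0.07, 0.03 and 0.04 in the parental ones. ADAR lay at -0.39, -0.22 and -0.16 against -0.05, 0.01 and 0.04, and ILF2 at -0.27, -0.13 and -0.08 against 0.02, 0.03 and -0.05. Neither gene's groups overlapped, though the mean differences of -0.26 and -0.16 were modest. DAP3, a protein of the mitochondrial ribosome, had a mean of -0.01 over probe sets at -0.22, 0.08 and 0.12, while its head-to-head neighbour YY1AP1, whose start lies 435 bases away on the other strand, had -0.49.

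The 6 members listed under cell cycle and cytoskeleton had a median of -0.23. For CKS1B the resistant arrays lay at -0.26, -0.16 and -0.06 and the parental arrays at -0.03, 0.03 and 0.00. These groups did not overlap, though narrowly, and the mean difference was -0.16, or 89.5% of the parental signal. LMNA, which encodes the nuclear lamins A and C, lay at -0.34, -0.20 and -0.35 against -0.06, 0.05 and 0.01. ARHGEF11, an activator of RhoA, had a mean of 0.00 over probe sets at -0.16, 0.24 and -0.09.

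Ligands, receptors and signalling proteins of the surface varied most, with a median of -0.14 over 11 members and values from -0.38 to 0.51. SH2D2A, an adaptor protein of T cells, was the exception to the direction of the block, with resistant arrays at 0.51, 0.48 and 0.55 and parental arrays at -0.05, -0.01 and 0.05. It stands directly after PRCC, at -0.41, in gene order. MUC1, a mucin of epithelia and myeloma cells, had resistant arrays at 0.32, -0.01 and -0.14, which overlapped the parental ones. The ephrin-A ligands EFNA4, EFNA3 and EFNA1, which are adjacent, had 0.10, -0.32 and -0.06. Genes best known from neurons, glia or epithelia had a median of -0.12 over 12 members, and the 26 members in no group -0.14. Among the latter ASH1L-AS1, the antisense RNA of ASH1L, lay at -0.48.

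**Figure D4:**
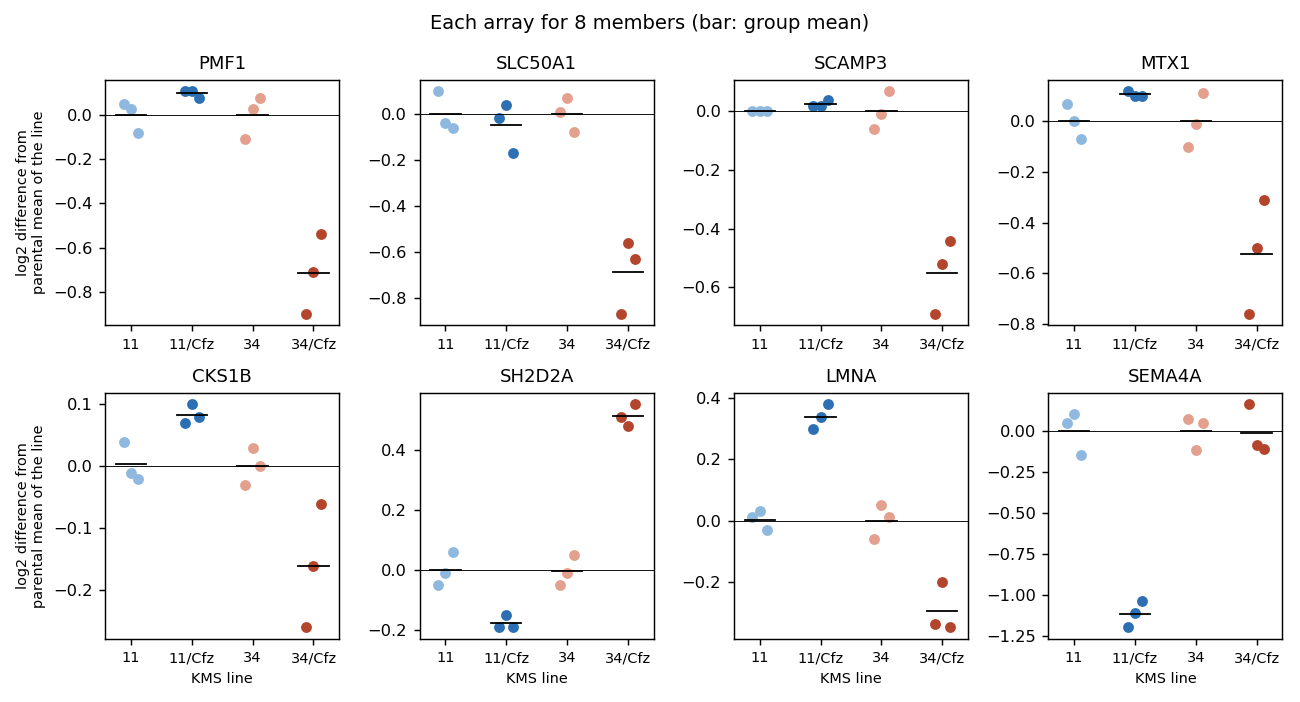
Log2 difference from the parental mean of the line for each array (points) and group mean (bars) of 8 members in the 4 groups; the vertical scales differ between genes. PMF1, SLC50A1, SCAMP3, MTX1, CKS1B and LMNA lie below the parental arrays in KMS-34/Cfz, SH2D2A lies above them, and SEMA4A is apart in KMS-11/Cfz alone.

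The 3 genes left out by the rule lie inside the same stretch. IL6R, the receptor of the myeloma growth factor interleukin-6, had resistant arrays at -1.54, -1.47 and -1.36 relative to parental KMS-34, a larger difference than in any member. PMVK and FDPS, enzymes of the mevalonate path to cholesterol, differed by -0.56 and -0.33. In KMS-11/Cfz their values were -0.16, 0.10 and -0.22 for IL6R, PMVK and FDPS, with adjusted p from 0.063 to 0.70 (limma).

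Probe sets of 1 gene mostly pointed the same way. Of the 197 probe sets, 167 (84.8%) were below 0 in KMS-34/Cfz, and of the 50 members with several probe sets, 35 had all of them below 0 and 12 had them on both sides of 0. Members with 1 probe set had a median of -0.16 and members with several -0.22. The members were chosen on this comparison, read by these same probe sets, so the agreement is a description and no test. The share below 0 over all probe sets was not computed.

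Many members are subunits of complexes whose other subunits are encoded on other chromosomes, and these partners were tested in KMS-34/Cfz because the rule did not use them. Of 111 partners and paralogs outside chromosome 1, the median difference was 0.00, with 57 below 0. By limma with Benjamini-Hochberg adjustment over all genes, 4 were higher and 9 lower, 11.7% in all, against 5.4% and 4.69% of all genes. The 34 members listed beside them had a median of -0.23, with 29 below 0. In each of 22 complexes or families the median of the members lay below that of the partners, a direction that the choice of the members favours and that is no test.

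Single partners are given here by complex, and no difference between complexes was tested. PMF1 lay at -0.72, while of the other subunits of its complex DSN1 rose by 0.56 (SE 0.07, adjusted p = 2.3e-04) and MIS12 fell by 0.30 (SE 0.08, adjusted p = 0.023). DSN1 was at 0.53, 0.54 and 0.59 in the resistant arrays against -0.02, 0.09 and -0.07 in the parental ones. CCT3, a subunit of the chaperonin that folds actin and tubulin, lay at -0.28, and 0 of its 6 partners tested was called, with values from -0.02 to 0.21. In the oligosaccharyltransferase, which adds N-glycans to new proteins, 3 of 9 partners fell, RPN1 by 0.30, STT3B by 0.26 and TMEM258 by 0.21 (adjusted p 0.0089 to 0.046). The other 6 had values from -0.19 to 0.06 and did not pass, and the member KRTCAP2 lay at -0.26. In the TRAP complex SSR3 fell by 0.24 (adjusted p = 0.019), SSR1 and SSR4 were both at -0.10 and did not pass (adjusted p 0.40 and 0.35), and the member SSR2 lay at -0.40.

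Other partners that fell were CHD3, a NuRD helicase, by 0.34, INTS12 of the Integrator complex by 0.39, BLOC1S2 of the lysosome-related BLOC-1 complex by 0.30, and MRPS22 of the mitochondrial ribosome by 0.28. Those that rose were NABP1, which works with Integrator, by 0.38, CRTC3, a coactivator of CREB and paralog of CRTC2, by 0.21, and TPM1, a paralog of the tropomyosin gene TPM3, which is not among the members, by 0.22. The adjusted p of these 7 genes ran from 0.0055 to 0.039. MTX2, the partner of MTX1, was at 0.18 (adjusted p = 0.13), and DPM1 and DPM2, partners of DPM3 in the synthase that supplies mannose for glycans, were at 0.16 and 0.23 (adjusted p 0.21 and 0.053), while DPM3 lay at -0.35. Only 1 of the 111 partners was called when the KMS-34 arrays were fitted without those of KMS-11, and 18 were called without KMS-34/Cfz replicate 1, so the names above rest on the spread shared by all groups. Without KMS-34 replicate 1 or without KMS-34/Cfz replicate 2, 8 were called.

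**Figure D5:**
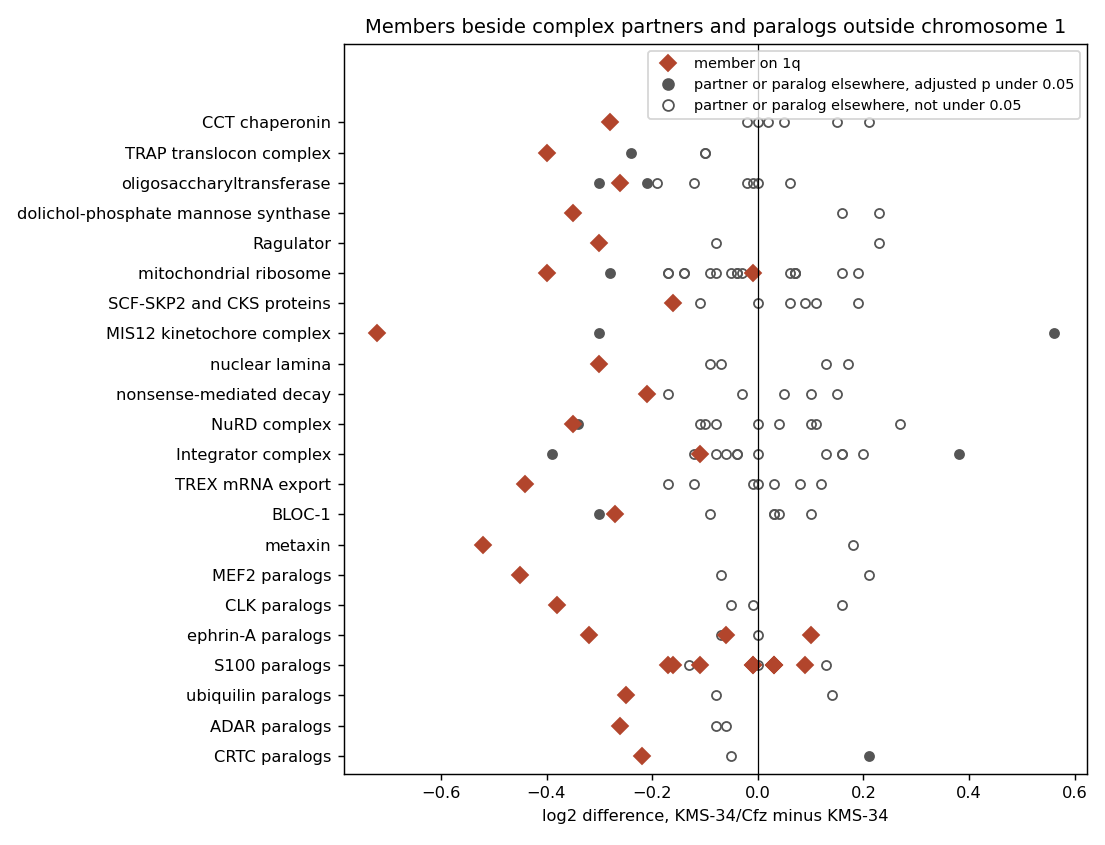
Log2 difference in KMS-34/Cfz against KMS-34 (horizontal axis) of members (diamonds) and of their partners or paralogs outside chromosome 1 (circles, filled at an adjusted p under 0.05) in 22 complexes or families (rows). Most partners lie between -0.2 and 0.2, with DSN1 at 0.56 and INTS12 at -0.39 as the ends.

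Of the genes on 1q that are discussed in myeloma and lie outside the block, ANP32E, a chaperone of histone H2A.Z, fell by 0.39 in KMS-34/Cfz (SE 0.08, adjusted p = 0.0049). SLAMF7, the surface target of elotuzumab, was lower in both derivatives, at -1 and -0.97 on the log2 scale (adjusted p = 7.0e-06 and 2.2e-05). The values of MCL1, ARNT, PSMD4 and BCL9 were -0.29, -0.22, -0.16 and -0.12 and missed the threshold (limma, adjusted p 0.093, 0.074, 0.16 and 0.32). ASPM, NUF2 and FCRL5 had -0.20, -0.08 and -0.02 in KMS-34/Cfz and missed it too (limma, adjusted p 0.11, 0.75 and 0.96).

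KMS-11/Cfz, whose arrays the rule did not use, did not show the shift of the block. The median of the members was 0.02, against 0.00 over all genes, with 48 members below 0 and 61 above. By limma over all genes, 4 members were higher (background 1.63%) and 5 lower (background 1.94%), and 100 did not pass. The resistant arrays lay wholly above the parental ones for 22 members and wholly below for 21, against 13.1% and 13.7% of all genes. Standard errors of single members were mostly 0.05 to 0.11, and the smallest difference that passed was that of SSR2, at -0.22.

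SEMA4A, a semaphorin that acts on immune cells, fell most, with resistant arrays at -1.20, -1.11 and -1.04 and parental arrays at 0.05, 0.10 and -0.15, a change of -1.12 (SE 0.09, adjusted p = 1.4e-05). Its 2 probe sets gave -1.27 and -0.97. In KMS-34/Cfz the same gene was at -0.02. CREB3L4, a transcription factor cleaved from the endoplasmic reticulum membrane, fell by 0.54 (SE 0.09, adjusted p = 0.0042), with arrays at -0.44, -0.69 and -0.50 against 0.08, 0.03 and -0.11. Under cyclic loess it was at -0.29 and missed the threshold (adjusted p = 0.14), as did RUSC1-AS1, described next, at -0.11 (adjusted p = 0.36).

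The other 3 that fell were ATP8B2, a phospholipid flippase, by 0.31 (adjusted p = 0.030), RUSC1-AS1, the antisense RNA of RUSC1, by 0.29 (adjusted p = 0.032), and SSR2 by 0.22 (adjusted p = 0.035). SSR2 was at -0.20, -0.22 and -0.24 against 0.00, -0.01 and 0.00, and its partners SSR1 and SSR3 in the same complex fell by 0.32 and 0.38 (adjusted p 0.0088 and 0.0022), while SSR4 was at -0.09 (adjusted p = 0.57). The 5 genes lower in KMS-11/Cfz had values of -0.02, -0.31, -0.40, -0.29 and -0.40 in KMS-34/Cfz, in the order in which they are named here.

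S100A6, known as calcyclin, rose by 0.62 in KMS-11/Cfz (SE 0.10, adjusted p = 0.0036), with resistant arrays at 0.55, 0.68 and 0.62 and parental arrays at -0.13, 0.16 and -0.03. Its 2 probe sets differed, at 1.11 and 0.13. S100A4, a metastasis-associated S100 protein encoded nearby, rose by 0.31 (adjusted p = 0.026), at 0.32, 0.32 and 0.31 against 0.02, 0.01 and -0.03. Of the 9 S100 members 8 were above 0, with a median of 0.13, and the resistant arrays lay wholly above the parental ones for 4, against 13.1% of all genes.

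ADAM15, a membrane metalloprotease and disintegrin, rose by 0.43 (SE 0.08, adjusted p = 0.012), with resistant arrays at 0.40, 0.49 and 0.40 against -0.08, 0.02 and 0.06. LMNA rose by 0.34 (SE 0.06, adjusted p = 0.0069), at 0.30, 0.34 and 0.38 against 0.01, 0.03 and -0.03, and its 6 probe sets gave 0.13 to 0.58. In KMS-34/Cfz these genes lay on the other side of the parental arrays, at -0.35 and -0.30. Among the genes that led the block in KMS-34/Cfz, PMF1, SLC50A1, SCAMP3 and MTX1 had 0.10, -0.05, 0.03 and 0.11 in KMS-11/Cfz (adjusted p 0.76 to 0.95). CKS1B had 0.09 (adjusted p = 0.68), ADAR 0.02 (0.96) and ILF2 -0.01 (0.99).

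The counts in KMS-11/Cfz were small and moved with the arrays used. Without KMS-11 replicate 1 or KMS-11/Cfz replicate 2, 2 members were higher, since ADAM15 and S100A4 missed the threshold. S100A4 missed it without any 1 of the 6 KMS-11 and KMS-11/Cfz arrays, with values of 0.30 to 0.33. Without any 1 of the same 6 arrays, 2 members were lower, since ATP8B2, RUSC1-AS1 and SSR2 missed the threshold. With the probe set of largest variance for each gene, S100A4 missed it too, at 0.31 (adjusted p = 0.059). SEMA4A, LMNA and S100A6 passed under every alternative tried.

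The parental lines already differed in the block. This comparison shares the 3 parental KMS-34 arrays with the one that chose the members, so the 2 sets of values are not independent. The median of the members was -0.24 in KMS-34 relative to KMS-11, against 0.02 over all genes. By limma, 55 members were lower in KMS-34 (background 20.5%) and 15 higher (background 21.6%). The arrays of the lines did not overlap for 58 members on the lower side and 21 on the higher, against 24% and 26.1% of all genes. Lower signals in KMS-34 were not confined to the block. On 1q before S100A6 the median was -0.11, with 57 of 134 genes lower and 7 higher. After ETV3 it was -0.04, with 199 of 635 genes lower and 64 higher. The KMS-34 arrays lay wholly below those of KMS-11 for 45.5% and 33.7% of these genes. Medians of windows of 20 genes reached -0.49 outside the block, from ZNF687-AS1 to S100A11, and -0.51 in it.

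Set against the mean of parental KMS-11, the median of the members was -0.24, -0.19 and -0.18 in the KMS-34 arrays and -0.42, -0.33 and -0.39 in the KMS-34/Cfz arrays. All 6 arrays of KMS-11 and its derivative stayed between -0.02 and 0.02. Those 6 overlapped, while the KMS-34 arrays lay below them and the KMS-34/Cfz arrays lowest.

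S100A4 differed most, at -5.90, -5.90 and -5.76 in the KMS-34 arrays relative to KMS-11, a difference of -5.86 (SE 0.07, adjusted p = 1.3e-15) and 0.0173 times the KMS-11 signal. S100A6 was lower by 1.73, but of its 2 probe sets 1 gave -3.35 and the other -0.10. Under cyclic loess scaling of the arrays the sign of S100A6 turned, to 0.26 (adjusted p = 0.10). S100A13, which takes part in the release of growth factors, was higher, at 1.16 (adjusted p = 2.6e-07), as the mean of probe sets at 2.24 and 0.09.

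NES, the intermediate filament nestin, differed by -2.98 (SE 0.10, adjusted p = 1.1e-11), GLMP by -2.66, SEMA4A by -1.88, EFNA1 by -1.70, MTX1 by -1.47, MSTO1 by -1.37 and SLC27A3, a fatty acid transport protein, by -1.27. The value of NES is the mean of 2 probe sets that gave -5.62 and -0.34. Under cyclic loess the values of NES, GLMP and MTX1 were -0.05, -1 and -0.61 and missed the threshold (adjusted p 0.80, 0.37 and 0.27). On the higher side stood KCNN3, a calcium-activated potassium channel, at 2.86 (SE 0.07, adjusted p = 1.6e-12), PAQR6, a membrane receptor for progestins, at 1.80, and SLC50A1 at 1.33. SLC50A1 had 1 of the largest values in each direction: the KMS-34 arrays lay at 1.34, 1.40 and 1.26 above KMS-11, and KMS-34/Cfz lay 0.69 below KMS-34.

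The 5 members listed as discussed in myeloma were lower in parental KMS-34. CKS1B was at -0.40, -0.33 and -0.36 relative to KMS-11 (difference -0.37, adjusted p = 2.1e-04), ILF2 at -0.69, ADAR at -0.52, UBE2Q1, a ubiquitin-conjugating enzyme, at -1.04 and MUC1 at -0.73, with adjusted p of 2.5e-05 or below for the last 4. Of the listed genes outside the members, IL6R and SLAMF7 were higher in KMS-34, by 3.27 and 0.85 (adjusted p = 2.8e-11 and 1.2e-06), and BCL9, PSMD4, ARNT and NUF2 were lower, at -0.63, -0.39, -0.56 and -0.68. MCL1, ANP32E, ASPM and FCRL5 had -0.13, -0.09, 0.15 and 0.03 and did not pass (limma, adjusted p 0.37, 0.42, 0.12 and 0.85).

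Of genes outside chromosome 1, those whose 12 values followed the median of the members most closely were RAP1GDS1 (Pearson r = 0.988), SLC16A9 (0.988), DCXR (0.986), NUDT6 (0.985) and RSAD1 (0.984). The 12 arrays fall into the 4 groups, so these correlations mainly restate group differences, and they carry no p. RAP1GDS1 and NUDT6 lie on chromosome 4, DCXR and RSAD1 on chromosome 17 and SLC16A9 on chromosome 10, and their KMS-34/Cfz differences ran from -0.27 to -1.46.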

How the data were processed

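Total RNA was hybridised to Affymetrix human genome arrays by a service laboratory, and the submitters' processing notes name RMA (version not given in the sources used here). The deposited values are on the log2 scale. Of 54613 probe sets, 99.99% have 3 to 9 of their 12 values below 0, so each was centred by a step that the sources do not describe. No genome build is named with the values, and gene order was taken from RefSeq. Probe sets naming 1 gene (41091) were averaged per gene, 1801 naming several genes and 11721 naming none were not used in tests, and 19775 genes entered 1 fit of the 12 arrays with a mean per group by the functions lmFit and eBayes of limma 3.58.1 in R 4.3.3. P-values are two-sided and Benjamini-Hochberg adjusted over all genes, with a threshold of 0.05. The number of arrays limits the precision. No filter on dim probe sets was possible.

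The members, the lists by role, the partners and the myeloma genes were chosen with earlier results of these data known. Named are the end genes, the genes left out, the 12 largest and 5 smallest differences in KMS-34/Cfz, members called in KMS-11/Cfz, the 12 largest parental differences, the 5 genes nearest each end, members with complex partners, called partners, genes discussed in myeloma and the 5 genes most alike outside chromosome 1. SLC25A44, PRCC, the ends of windows and examples from a probe set of several genes fall outside this rule and were named after their values were seen. Alternatives were aligned array medians, cyclic loess, the replicate number as a block, a fit of only the groups compared, the probe set with the largest variance, a variance trend, array weights and leaving out each array.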

Additional observations from a re-analysis of the deposited data

Results flagged for a closer look

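For 13 named members the resistant arrays lay wholly on opposite sides of the parental arrays in the 2 lines, and this difference between the lines was not tested, since the KMS-34 side chose the members. LMNA was at -0.30 in KMS-34/Cfz and 0.34 in KMS-11/Cfz, and ADAM15 at -0.35 and 0.43. KCNN3 was at -0.24 and 0.22, and SNAPIN, a SNARE-binding subunit of BLOC-1, at -0.27 and 0.12. SH2D2A had the reverse pattern, at 0.51 in KMS-34/Cfz and -0.18 in KMS-11/Cfz.

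The other 8 combined a low value in KMS-34/Cfz with a small positive one in KMS-11/Cfz. They were PMF1 at -0.72 and 0.10, SCAMP3 at -0.55 and 0.03, MTX1 at -0.52 and 0.11, GLMP at -0.47 and 0.16, and MRPL24 of the mitochondrial ribosome at -0.40 and 0.15. CCT3 was at -0.28 and 0.06, SMG5 of nonsense-mediated decay at -0.21 and 0.10, and CKS1B at -0.16 and 0.09. Of the 13, LMNA and ADAM15 passed the test in KMS-11/Cfz. With 3 arrays a group, 13.1% of all genes lay wholly above and 13.7% wholly below in KMS-11/Cfz. In KMS-34/Cfz the shares of all genes were 10.2% and 10.5%. Of the 109 members, 58 lay wholly below in KMS-34/Cfz, the comparison that chose them, and 22 wholly above in KMS-11/Cfz. The share of all genes on opposite sides in the 2 lines was not computed, so nothing is read from the count of 13.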

How the results depend on the processing

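The median of the members in KMS-34/Cfz stayed between -0.17 and -0.23 under every alternative run. In KMS-11/Cfz it was 0.02 as reported and 0.04 under cyclic loess, and between the parental lines -0.24 as reported, -0.17 under cyclic loess, -0.30 with the probe set of largest variance and -0.18 to -0.26 without 1 array at a time. Members higher in KMS-11/Cfz numbered 4, against 8 under cyclic loess, 7 with array weights and 2 to 4 without 1 array. Members lower there numbered 5, against 3 under cyclic loess, 3 with the probe set of largest variance, 9 with array weights and 2 to 6 without 1 array. Parental counts of 15 higher and 55 lower ranged from 11 to 16 and from 50 to 59. Partners called in KMS-34/Cfz numbered 13, against 1 with only the 2 groups in the fit and 8 to 18 without 1 array. Lower genes of 1q outside the block, an alternative added after seeing the data, numbered 168, against 60 with only the 2 groups in the fit, 165 with the replicate block and 119 to 171 without 1 KMS-34 or KMS-34/Cfz array. The sign of S100A6 between the parental lines turned under cyclic loess, from -1.73 to 0.26, and the cause was not tested. Cyclic loess was fitted to the centred values, whose averages over the arrays are not expression levels. Of 9 members called in KMS-11/Cfz, 3 kept their call under every alternative, and of 45 named members called between the parental lines, 38 did.

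Deviations from the group means in same-numbered arrays of KMS-34/Cfz and KMS-34 correlated with r of 0.561, 0.374 and 0.0462. In the other comparisons r ran from -0.13 to 0.289. Whether the numbers pair the arrays cannot be told from this, and the main fit did not pair them. With the replicate block, 4 members were higher and 4 lower in KMS-11/Cfz, where SSR2 missed the threshold (adjusted p = 0.052), and 15 and 55 between the parental lines and 13 partners were called, as without it. A difference the size of the median of the members is only a few standard errors of a single gene with 3 arrays a group, and the centred values give no signal over background.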
